A study of Mus musculus with 96 samples.

Results

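The 10 genes described here encode the enzymes and carriers of the shuttles that move reducing equivalents from NADH in the cytosol into mitochondria. They were chosen by name, as the count table's rows for Mdh1, Got1, Mdh2, Got2, Slc25a11, Slc25a12, Slc25a13, Gpd1, Gpd1l and Gpd2, and all 10 were found among its 54146 genes. The study measured RNA in C2C12 cells, a mouse myoblast line that withdraws from the cell cycle and fuses into myotubes when serum is lowered. Mitochondria were inhibited with piericidin (complex I), antimycin (complex III), oligomycin (ATP synthase), BAM15 (an uncoupler), hypoxia or chloramphenicol (mitochondrial translation), and the comparisons ask how each cell state and each means of oxidizing NADH changed the response. The table holds 96 samples in 35 groups, 26 of 3 replicates and 9 of 2.

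Myoblasts carried a doxycycline-inducible transgene and all of them received doxycycline at 300 ng/ml in medium with 10% dialyzed serum. The transgenes were luciferase (called control), LbNOX, a bacterial water-forming NADH oxidase that stays in the cytosol, mitoLbNOX, the same enzyme sent to the matrix, and NDI1, a yeast NADH dehydrogenase that bypasses complex I and is resistant to piericidin. Control myoblasts received DMSO, piericidin, antimycin or oligomycin for 10 hr, or chloramphenicol or its own DMSO for 48 hr. Per the study's methods, medium for the 10 hr treatments lacked pyruvate and uridine, whereas uridine was present for chloramphenicol. LbNOX myoblasts received the same agents, mitoLbNOX myoblasts DMSO, piericidin or antimycin, and NDI1 myoblasts DMSO or piericidin. Myotubes, after 4 days in low serum, received for 10 hr DMSO, piericidin, antimycin, oligomycin, BAM15, oligomycin with piericidin or with BAM15, or DMSO or oligomycin in hypoxia, and had no transgene. Hypoxia was a mild lowering of oxygen that began the night before and lasted through the treatment. A further set of myotubes was transduced with adenovirus for GFP, or for GFP and LbNOX, and received DMSO, piericidin or oligomycin. Post-mitotic cells at 24 hr in low serum, with no transgene, received DMSO, piericidin or oligomycin. The transgenes were overexpressed from viral constructs, and whether a line is 1 clone was not given in the sources used here. Control myoblasts differed from myotubes and from the 24 hr cells not only in state but also in transgene, doxycycline and serum, and these cannot be told apart. Nothing in the labels says that replicates came from separate cultures, so the p-values measure only the spread between these samples.

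NADH made in glycolysis cannot cross the inner mitochondrial membrane, and 2 shuttles carry its electrons instead. In the malate-aspartate shuttle, cytosolic malate dehydrogenase (Mdh1) reduces oxaloacetate to malate, the oxoglutarate carrier (Slc25a11) brings malate into the matrix, and mitochondrial malate dehydrogenase (Mdh2) makes NADH there, after which the transaminases Got2 and Got1 and the aspartate-glutamate carriers Slc25a12 and Slc25a13 return the carbon as aspartate. In the glycerol phosphate shuttle, cytosolic glycerol phosphate dehydrogenase (Gpd1, and its relative Gpd1l) reduces dihydroxyacetone phosphate, and the enzyme on the outer face of the inner membrane (Gpd2) passes the electrons to ubiquinone, which bypasses complex I. Where the respiratory chain is blocked, cells are known to run short of electron acceptors for making aspartate, and Got1 can then work in the direction of aspartate synthesis.

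Over the 22 comparisons of a single agent or of hypoxia with DMSO, Got1 was called higher most often and Gpd1l called lower most often, so the sequences before their starts are shown. The windows are the 250 bases before the RefSeq start, read 5′ to 3′ on the minus strand of GRCm38.p6, at chr19:43524606-43524855 for Got1 and chr9:114933988-114934237 for Gpd1l. Capitals mark matches, on either strand, to 3 motifs that were searched, and none of these matches overlapped.
Got1: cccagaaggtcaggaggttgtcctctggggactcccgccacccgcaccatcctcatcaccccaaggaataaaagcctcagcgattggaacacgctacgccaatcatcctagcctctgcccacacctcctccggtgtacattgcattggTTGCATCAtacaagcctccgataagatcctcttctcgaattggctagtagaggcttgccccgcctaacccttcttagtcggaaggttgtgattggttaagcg
Gpd1l: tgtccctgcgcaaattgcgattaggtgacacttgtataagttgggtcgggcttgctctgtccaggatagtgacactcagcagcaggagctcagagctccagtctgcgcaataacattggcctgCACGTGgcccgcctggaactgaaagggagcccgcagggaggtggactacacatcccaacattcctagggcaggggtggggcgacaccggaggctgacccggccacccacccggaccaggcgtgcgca
The capitals in Got1 are a match on the reverse strand to TGATGNAA, the composite element of C/EBP and ATF family factors, with its first base at -102 from the start, and 3.45% of 32851 RefSeq promoter windows hold one. The capitals in Gpd1l are the E-box CACGTG at -127, which 6.02% of the windows hold, and Slc25a13 held one at -125. No member's window held the NRF1 motif, found in 3.74% of windows, and Got1 was the only member with a C/EBP-ATF match. RefSeq windows were matched for 9 of the 10 members, with 2 for Gpd2, and Gpd1 had none. A match says only that the letters are there.

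Positions are from the GENCODE vM21 annotation of GRCm38.p6, the build that the authors used with an Ensembl annotation. The malate-aspartate genes are Mdh1 (ENSMUSG00000020321) at chr11:21556787-21572367, Got1 (ENSMUSG00000025190) at chr19:43499752-43524605, Mdh2 (ENSMUSG00000019179) at chr5:135778480-135790398, Got2 (ENSMUSG00000031672) at chr8:95864134-95888547 and Slc25a11 (ENSMUSG00000014606) at chr11:70644196-70647479, and the 2 aspartate-glutamate carriers are Slc25a12 (ENSMUSG00000027010) at chr2:71271063-71367749 and Slc25a13 (ENSMUSG00000015112) at chr6:6041218-6217173. The glycerol phosphate genes are Gpd1 (ENSMUSG00000023019) at chr15:99717515-99725005, Gpd1l (ENSMUSG00000050627) at chr9:114899341-114933987 and Gpd2 (ENSMUSG00000026827) at chr2:57237635-57370719. Mdh1 overlaps Wdpcp and Slc25a11 overlaps Rnf167, each on the opposite strand, and because the libraries were not strand-specific, reads over shared exons cannot be assigned to one strand. The overlapping genes had median counts of 66 (Wdpcp) and 188 (Rnf167), against 1606 for Mdh1 and 1222 for Slc25a11.

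Libraries held 6458295 to 15366745 counts each (median 10336588.5), and levels are given as CPM, a gene's count scaled to a TMM-normalized library total of 1000000. Each transgene was counted in every library that should carry it and had 0 counts in all others. Summed markers of other cell types (Ptprc, Cd68, Pecam1, Cdh5, Epcam, Krt8, Adipoq and Plin1) stayed between 1.68 and 9.88 CPM, the highest in control myoblasts with antimycin, with Epcam, Adipoq and Cdh5 at 0 in most libraries, while differentiation genes (Myog, Mymk, Myh3, Ckm, Acta1 and Tnnt3) summed to 17.3 to 21.6 CPM in control DMSO myoblasts and 10956 to 11279.9 in DMSO myotubes. Of plate codes in the labels, read as well positions, 36 were at the outer edge, among them the 3 control DMSO myoblast samples but none of the control antimycin samples. In bulk RNA, fewer cells of a type and less RNA per cell cannot be told apart. All tests are edgeR's quasi-likelihood tests with Benjamini-Hochberg adjustment over all genes of a fit, a gene is called when its adjusted p is under 0.05, fold changes are on the log2 scale with their standard errors, and values after ± are SDs. The comparisons within a line or state share their DMSO samples and are not independent.

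Between cell states, Gpd2 was higher in myoblasts and Gpd1l in myotubes. Per kilobase of transcript, Mdh2 had the highest level of the 10 in all 3 states, at 252 ± 7.07 CPM per kb in control DMSO myoblasts, 201 ± 5.60 in the 24 hr cells and 209 ± 3.10 in myotubes. In myoblasts the order below it was Got2 at 107, Mdh1 at 67.3, Slc25a11 at 58.0, Got1 at 27.9, Gpd2 at 26.8, Slc25a12 at 10.7, Gpd1l at 7.86, Slc25a13 at 1.42 and Gpd1 at 0.137 CPM per kb, where only Got1 and Gpd2 overlapped between samples. In myotubes it was Mdh1 at 89.8, Slc25a11 at 71.3, Got2 at 68.3, Got1 at 28.6, Gpd1l at 18.7, Slc25a12 at 11.5, Gpd2 at 3.83, Gpd1 at 2.23 and Slc25a13 at 0.182, and no neighbours overlapped. Gpd2, the membrane enzyme, thus stood above Gpd1l in myoblasts and below it in myotubes and was above Gpd1 in both, and in the 24 hr cells Gpd1l was at 9.99 and Gpd2 at 6.14 CPM per kb. The ratio of Gpd1l to Gpd2 per length was 0.293 ± 0.0292 in control DMSO myoblasts and 4.88 ± 0.193 in DMSO myotubes.

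**Figure D1:**
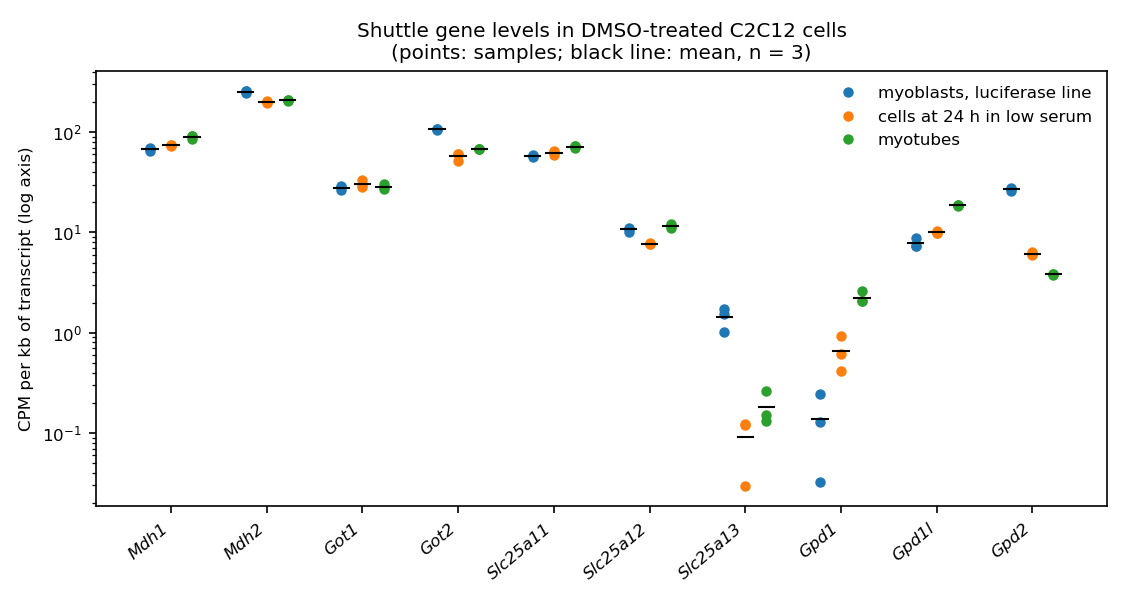
Level of each of the 10 genes in DMSO, as CPM per kilobase of transcript on a log axis, in control myoblasts, 24 hr cells and myotubes. Points are samples (n = 3 a state). Gpd2 and Slc25a13 sit highest in myoblasts, and Gpd1 and Gpd1l highest in myotubes.

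In DMSO, 9 of 10 members differed between myotubes and control myoblasts, where 69.4% of all genes tested did. Gpd1 met the count filter in myotubes alone and Slc25a13 in myoblasts alone, so each had to differ between these states, and their values are given as a description. Without them the count was 7 of 8. Gpd2 had 147, 157 and 158 CPM in the myoblast samples and 21.6, 22.1 and 22.4 in the myotube samples, a log2 difference of -2.77 (SE 0.09, adjusted p = 4.33e-21). The groups of Gpd2 did not overlap. Slc25a13, one of the pair of aspartate-glutamate carriers, had 45, 51 and 58 counts in myoblasts and 4, 5 and 9 in myotubes. Gpd1, the cytosolic enzyme of the glycerol phosphate shuttle, had 1, 4 and 10 counts in myoblasts and 57, 62 and 82 in myotubes. Gpd1l had 32.1, 32.5 and 38.9 CPM in myoblasts and 79.7, 82.9 and 83.3 in myotubes (log2 change 1.29, SE 0.11, adjusted p = 9.1e-12). In the malate-aspartate shuttle the differences were smaller. On the log2 scale Got2 (-0.61) and Mdh2 (-0.23) were lower in myotubes, and Mdh1 (0.46), Slc25a11 (0.34) and Slc25a12 (0.15) were higher. Got1 was not called, with 57.5 ± 2.33 CPM in myoblasts and 58.8 ± 3.17 CPM in myotubes (95% interval of the log2 difference -0.05 to 0.20). The call of Slc25a12 was lost in some alternatives (highest adjusted p = 0.541).

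The 24 hr cells were taken early after the switch to low serum. Against control myoblasts in DMSO, 8 of 10 members differed, or 6 of 8 without Gpd1 and Slc25a13, among 63.6% of all genes. Lower in the 24 hr cells were Gpd2 (log2 -2.12), Got2 (-0.89), Slc25a12 (-0.47) and Mdh2 (-0.32), and higher were Gpd1l (0.35) and Mdh1 (0.14). Gpd1 had 13, 19 and 34 counts in the 24 hr cells and Slc25a13 1, 4 and 5. Got1 and Slc25a11 were not called, at 0.13 and 0.11, but DESeq2 called both higher in the 24 hr cells (adjusted p = 0.0254 and 0.0359). Between myotubes and the 24 hr cells 7 of 10 members differed, or 6 of 8 without those genes, among 35.6% of all genes. Gpd1l was higher in myotubes by 0.94, Slc25a12 by 0.62, Mdh1 by 0.31, Got2 by 0.28 and Slc25a11 by 0.22, and Gpd2 was at -0.64. Slc25a12 and Got2 were therefore lowest in the 24 hr cells, at 48.5, 48.7 and 49.4 CPM and 131, 152 and 154 CPM, while Gpd2 and Gpd1l moved one way through both steps. Among the states, summed proliferation markers (Mki67, Top2a and Ccna2) moved with these differences, from 820.0 to 841 CPM in control DMSO myoblasts to 146 to 160.0 in 24 hr cells and 88.5 to 104 in myotubes. Differentiation genes summed to 10656 to 11243 CPM in the 24 hr cells, which overlapped the myotube range, and myoblast markers (Myod1, Myf5 and Pax7) to 135 to 139 in myoblasts, 225 to 239.6 in 24 hr cells and 165 to 173 in myotubes. Acta1 is the largest part of the differentiation sum, and its members differed. Over all treatments, Tnnt3 was at 479 to 541 CPM in 24 hr cells and 886 to 1104 in myotubes, and Myog had medians of 1477 and 725. By median, Myog and Mymk were higher in 24 hr cells and Myh3, Ckm, Acta1 and Tnnt3 in myotubes. The paper calls the 24 hr cells far from differentiated. The part of these sums was not tested. Calls lost in at least 1 alternative were those of Mdh1 (highest adjusted p = 0.386) and Gpd1l (highest adjusted p = 0.0534) for the 24 hr cells against myoblasts, and of Slc25a11 (highest adjusted p = 0.211) for myotubes against the 24 hr cells.

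In control myoblasts, each inhibitor raised Got1, the cytosolic aspartate aminotransferase, and lowered Gpd1l, Slc25a12, Mdh1 and Gpd2. Got1 had 54.9, 58.6 and 59.2 CPM in DMSO, 209.9, 210.4 and 226 with piericidin, 163, 163 and 165 with antimycin and 197, 206 and 213 with oligomycin. Every treated sample lay above every DMSO sample, and the log2 change of Got1 was 1.94 (SE 0.08, adjusted p = 4.81e-19) for piericidin, 1.55 (SE 0.08, adjusted p = 9.82e-17) for antimycin and 1.85 (SE 0.08, adjusted p = 3.09e-18) for oligomycin. Its mitochondrial partner Got2 had 266, 272 and 274 CPM in DMSO, 286, 292 and 315 with piericidin, 256, 275 and 291 with antimycin and 269, 272 and 287 with oligomycin. Got2 rose by 0.17 (SE 0.04, adjusted p = 0.000909) with piericidin and was not called with antimycin (0.06) or oligomycin (0.04), whose samples overlapped those of DMSO, although it was called with antimycin when position was a covariate (adjusted p = 0.0382). The ratio of Got1 to Got2 per length was 0.261 ± 0.00688 in DMSO, and it reached 0.89 ± 0.0106 under piericidin, 0.736 ± 0.0506 under antimycin and 0.913 ± 0.016 under oligomycin. Of the members tested, 8 of 9 were called with piericidin, 8 of 9 with antimycin and 6 of 9 with oligomycin, and the shares of all genes tested were 61.7%, 63.2% and 50.8%. These counts hold Slc25a13, which met the count filter in DMSO but in none of the 3 inhibitor groups, and without it they were 7 of 8, 7 of 8 and 5 of 8. The median log2 change of the other 8 members was -0.20, -0.09 and -0.10, against -0.004, -0.0048 and -0.015 over all genes. Gpd1 was not tested in myoblasts because its counts, 0 to 10 in the myoblast libraries, were under the filter.

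The malate dehydrogenases moved apart. Mdh1, the cytosolic form, had 137, 145 and 147 CPM in DMSO and 99.0, 101 and 102 with piericidin, and it was at 103 ± 4.17 CPM with antimycin and 103 ± 3.55 CPM with oligomycin (n = 3). No treated sample reached the DMSO range, and Mdh1 fell with all 3, with log2 changes of -0.47 (SE 0.05, adjusted p = 4.34e-10) for piericidin, -0.43 (SE 0.05, adjusted p = 2.92e-09) for antimycin and -0.47 (SE 0.05, adjusted p = 8.57e-10) for oligomycin. Mdh2, the matrix form, rose by 0.26 with piericidin and 0.29 with antimycin and was not called with oligomycin, with 367 ± 10.3 CPM in DMSO and 369.6 ± 14.0 CPM with oligomycin.

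Among the carriers, Slc25a12 had 64.4, 69.2 and 70.4 CPM in DMSO, 29.3, 29.9 and 31.6 with piericidin, 32.0, 32.1 and 32.9 with antimycin, and 33.1 ± 2.81 CPM with oligomycin (n = 3). All 9 treated samples lay far below the DMSO samples, and the gene's log2 changes were -1.13 (SE 0.09, adjusted p = 1.41e-12) with piericidin, -1.03 (SE 0.09, adjusted p = 1.09e-11) with antimycin and -1.03 (SE 0.09, adjusted p = 1.62e-11) with oligomycin. Slc25a13, with few counts, had 45, 51 and 58 counts in DMSO, 11, 19 and 24 with piericidin, 6, 13 and 23 with antimycin and 11, 26 and 34 with oligomycin, and its fitted log2 changes, from a gene kept by its high group, were -1.11, -1.46 and -0.97. No treated sample of either aspartate-glutamate carrier reached the CPM of the lowest DMSO sample. For Slc25a13, which met the count filter in no control inhibitor group, this separation is only a description. Slc25a11, the malate carrier, was called with antimycin alone, where it rose by 0.23 (SE 0.06, adjusted p = 0.000983), and was at -0.01 with piericidin and 0.03 with oligomycin.

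In the glycerol phosphate shuttle, Gpd1l had 32.1, 32.5 and 38.9 CPM in DMSO, 9.72, 11.4 and 14.7 with piericidin, 14.4, 17.3 and 19.0 with antimycin and 11.8, 12.5 and 15.8 with oligomycin. The groups did not overlap with DMSO, and the log2 change of Gpd1l, -1.49 (SE 0.15, adjusted p = 3.56e-10) with piericidin, -0.99 (SE 0.14, adjusted p = 4.95e-07) with antimycin and -1.36 (SE 0.14, adjusted p = 2.42e-09) with oligomycin, was the most negative of the 9 members for piericidin and oligomycin. Gpd2 had 147, 157 and 158 CPM in DMSO, 109, 118 and 119 with piericidin, 124, 127 and 128 with antimycin and 121, 132 and 141 with oligomycin, and its log2 changes of -0.38 (SE 0.06, adjusted p = 1.59e-06) for piericidin, -0.24 (SE 0.06, adjusted p = 0.000767) for antimycin and -0.22 (SE 0.06, adjusted p = 0.00241) for oligomycin were smaller. Some of these calls were lost when a replicate number was left out or in another alternative, namely with piericidin Got2 (highest adjusted p = 0.091) and Slc25a13 (highest adjusted p = 0.174), with antimycin Slc25a13 (highest adjusted p = 0.0989) and Slc25a11 (highest adjusted p = 0.105) and with oligomycin Slc25a13 (highest adjusted p = 0.287) and Gpd2 (highest adjusted p = 0.0745). With position as a covariate, no call of the 3 comparisons was lost, although DMSO and antimycin samples differed in position. Genes of the integrated stress response (Atf4 and Ddit3, which encode an ATF and a C/EBP family factor, and their targets Trib3 and Chac1) summed to 265 to 286 CPM in DMSO, 2064 to 2143 with piericidin, 2948 to 3068 with antimycin and 1386 to 1413 with oligomycin. In the same groups, summed proliferation markers were at 820.0 to 841 CPM in DMSO, 561 to 612 with piericidin, 381 to 418 with antimycin and 577 to 602 with oligomycin. Differentiation genes summed to 26.7 to 33.01, 83.6 to 92.6 and 22.4 to 30.9 CPM with the inhibitors in that order, against 17.3 to 21.6 in DMSO. Myoblast markers summed to 135 to 139 CPM in DMSO, 132 to 135 with piericidin, 265 to 282 with antimycin and 79.6 to 90.3 with oligomycin. Over all myoblast libraries Myod1 reached at most 153 CPM and Pax7 4.39, while Myf5 had a median of 9.55 and reached 135. The antimycin sum therefore includes a high Myf5 level and is no shift of the whole set. The part of these shifts in the change of the shuttle genes was not tested.

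**Figure D2:**
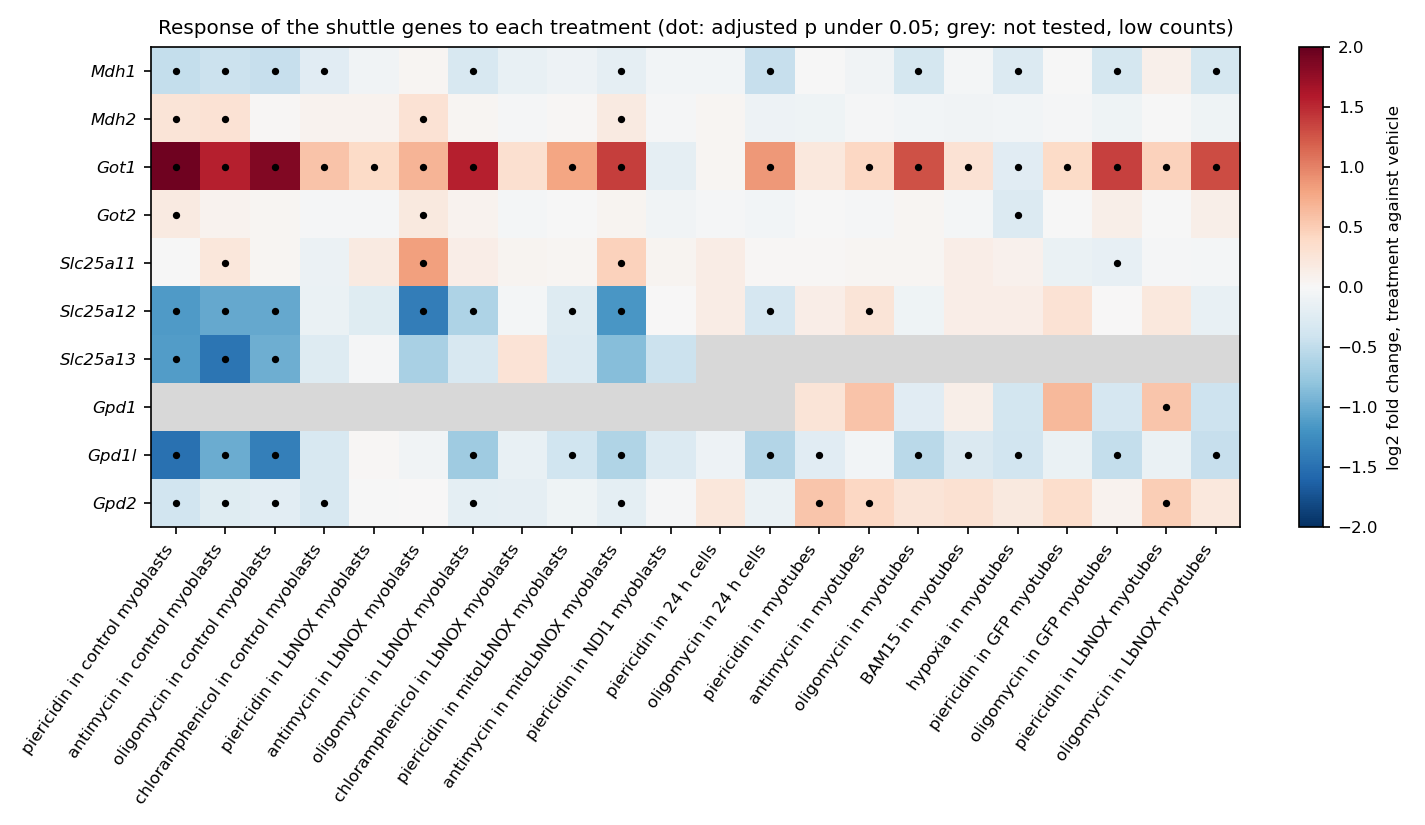
Log2 fold change of each member (rows) in each comparison of an agent, or of hypoxia, with DMSO (columns), with colour for size and direction a dot where the change was called and grey where the gene was under the count filter. The Got1 row holds 17 called increases and 1 called decrease of 22, and the Gpd1l row 13 called decreases.

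Other genes of these pathways were listed by their function, and their counts in control myoblasts stand beside 61.7% of all genes called with piericidin, 63.2% with antimycin and 50.8% with oligomycin. Of genes of lactate and pyruvate handling, 2 higher and 3 lower of 7 tested were called with piericidin, 2 higher and 3 lower of 7 with antimycin and 1 higher and 3 lower of 7 with oligomycin. With piericidin the largest changes in that list were those of Slc16a3, which encodes a lactate exporter, at -2.44, Slc16a1, another monocarboxylate transporter, at 1.49, and Ldhb, a lactate dehydrogenase subunit, at -1.04. For genes of malate, aspartate and glutamate outside the shuttle the counts were 3 higher and 7 lower of 11, 4 higher and 5 lower of 11 and 3 higher and 5 lower of 11. There Slc1a3, a plasma membrane transporter of aspartate and glutamate, was at -2.27, Asns, which makes asparagine from aspartate, at 2.17 and Glud1, glutamate dehydrogenase, at 1.40 with piericidin, and the last 2 were also called higher with antimycin (1.82 and 1.62) and oligomycin (1.78 and 1.33). For genes that make or use glycerol phosphate the counts were 3 higher and 2 lower of 7, 2 higher and 2 lower of 7 and 3 higher and 1 lower of 7. Gpat3, an acyltransferase that uses glycerol phosphate for lipid synthesis, rose by 3.42, 4.16 and 2.11 with the 3 inhibitors in turn. With piericidin the median log2 changes of the 3 lists, in the order given, were 0.14, -0.40 and -0.02.

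The inhibitors were then compared with each other in control myoblasts. Between antimycin and piericidin 4 of 9 members differed, among 37.2% of all genes. Got1 was lower with antimycin (log2 -0.39, adjusted p = 0.000151), as was Got2 (-0.11, adjusted p = 0.0437). Gpd1l was higher with antimycin (0.51, adjusted p = 0.0101), as was Slc25a11 (0.24, adjusted p = 0.00143). Between piericidin and oligomycin 3 of 9 differed, among 39.2%, and Mdh2 (log2 0.23) and Got2 (0.13) were higher with piericidin and Gpd2 (-0.17) was lower. Got1 differed by 0.09 between piericidin and oligomycin (95% interval -0.05 to 0.24), and Slc25a12 by -0.11 (-0.28 to 0.07). Calls lost in an alternative were those of Got2 (highest adjusted p = 0.317), Gpd1l (highest adjusted p = 0.314) and Slc25a11 (highest adjusted p = 0.119) in the first comparison, and of Gpd2 (highest adjusted p = 0.114) and Got2 (highest adjusted p = 0.384) in the second.

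In DMSO, Got2 was the one member called between control and the LbNOX or mitoLbNOX line. Got2 had 266, 272 and 274 CPM in control DMSO myoblasts, 315, 330.0 and 341 in LbNOX, 299, 311 and 315 in mitoLbNOX and 329 and 348 in NDI1 myoblasts, and no sample of the other lines fell within the control range. It was higher in LbNOX by 0.28 (SE 0.04, adjusted p = 9.61e-05) and in mitoLbNOX by 0.19 (SE 0.04, adjusted p = 0.0128), and NDI1 was not tested against control. That made 1 of 9 members called in LbNOX, among 2.66% of all genes, and 1 of 9 in mitoLbNOX, among 1.74%. The call in mitoLbNOX was lost in at least 1 alternative (highest adjusted p = 0.187), and the call in LbNOX in none that was run.

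With piericidin, Got1 was called in the LbNOX and mitoLbNOX lines and not in NDI1 myoblasts, and the counts of members called are given beside the shares of all genes, which were also below the 61.7% of control. In LbNOX myoblasts, 1 of 9 members were called with piericidin, among 8.87% of all genes, and that was Got1, with 49.9, 54.0 and 56.2 CPM in DMSO and 65.8, 69.1 and 69.3 with piericidin (log2 change 0.38, SE 0.08, adjusted p = 0.00195). In mitoLbNOX myoblasts, 3 of 9 were called, among 11.2%. Got1 had 51.2, 53.7 and 64.7 CPM in DMSO and 90.2, 94.1 and 104 with piericidin (log2 change 0.79, SE 0.08, adjusted p = 8.23e-09), and both Gpd1l (log2 change -0.40, SE 0.13, adjusted p = 0.0488) and Slc25a12 (log2 change -0.26, SE 0.08, adjusted p = 0.0401) fell. All piericidin samples of both lines lay above their DMSO samples for Got1 and below the 209.9, 210.4 and 226 CPM of control. In NDI1 myoblasts 0 of 9 members were called by edgeR with piericidin, among 0.00835% of all genes, with 0 at an unadjusted p under 0.05 and 0 called by DESeq2. Got1 there had 57.7 and 63.4 CPM in DMSO and 48.9 and 56.3 with piericidin (95% interval of the log2 change -0.37 to 0.02, n = 2 and 2). Leaving out a replicate number took the count over all genes in NDI1 from 1 to between 0 and 55. Stress response genes summed to 426 to 456 CPM with piericidin in LbNOX, 709 to 738 in mitoLbNOX and 384 to 399 in NDI1, against 2064 to 2143 in control. In DMSO those genes summed to 260.1 to 266, 290.2 to 315 and 349 to 357 CPM in the 3 lines. Proliferation markers were at 659 to 707, 631 to 658 and 756 to 768 CPM in these lines with piericidin. Differentiation genes were at 15.6 to 22.4 CPM in DMSO and 29.8 to 37.2 with piericidin in LbNOX. They were at 14.5 to 20.0 and 29.1 to 35.5 in mitoLbNOX and at 13.4 to 13.8 and 10.2 to 14.8 in NDI1. The part of these sums was not tested. Slc25a12 and Slc25a11, not called in LbNOX at -0.25 and 0.18, were called by DESeq2 (adjusted p = 0.0379 and 0.0498). The call of Got1 in LbNOX was lost without replicate 3 (highest adjusted p = 0.102), and in mitoLbNOX those of Slc25a12 (highest adjusted p = 0.202) and Gpd1l (highest adjusted p = 0.415).

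With antimycin the picture differed between the lines. In LbNOX myoblasts 5 of 9 members were called, among 46.1% of all genes. Got1 had 76.2, 81.8 and 90.8 CPM, an increase of 0.67 (SE 0.08, adjusted p = 3.8e-08), while Gpd1l had 28.4, 31.5 and 32.3 CPM against 25.9, 34.0 and 39.0 in DMSO and was not called. Slc25a11 rose by 0.82 (SE 0.06, adjusted p = 1.03e-12), to the highest level of any group, 161 ± 6.99 CPM, Mdh2 rose by 0.28 and Got2 by 0.19. Slc25a12 fell by 1.38 (SE 0.09, adjusted p = 5.94e-14), from 66.9, 68.7 and 76.2 to 24.9, 25.0 and 29.3 CPM, the lowest level of any group. Here, summed stress response genes were at 260.1 to 266 CPM in DMSO and 249.6 to 259 with antimycin. Summed proliferation markers were at 819.9 to 831 CPM in DMSO and 414 to 432 with antimycin, myoblast markers at 112 to 125 and 62.6 to 77.8, differentiation genes at 15.6 to 22.4 and 32.1 to 38.8 and markers of other cell types at 2.66 to 3.30 and 4.10 to 6.55, and the part of these sums in the change of the shuttle genes was not tested. In mitoLbNOX myoblasts 7 of 9 were called, among 47.7%. Got1 had 132, 146 and 152 CPM (log2 change 1.39, SE 0.08, adjusted p = 3.89e-15), Slc25a11 rose by 0.46 and Mdh2 by 0.18, and Slc25a12 (-1.17), Gpd1l (-0.59), Gpd2 (-0.19) and Mdh1 (-0.18) fell. Stress response genes there summed to 290.2 to 315 CPM in DMSO and 1917 to 1986 with antimycin, proliferation markers to 749.6 to 831 and 399 to 432, myoblast markers to 109.6 to 119.5 and 115 to 135, differentiation genes to 14.5 to 20.0 and 59.2 to 63.0 and markers of other cell types to 1.68 to 4.30 and 8.80 to 9.40, and their part was not tested either. Calls lost in an alternative were that of Got2 (highest adjusted p = 0.0558) in LbNOX and that of Gpd2 (highest adjusted p = 0.0543) in mitoLbNOX.

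**Figure D3:**
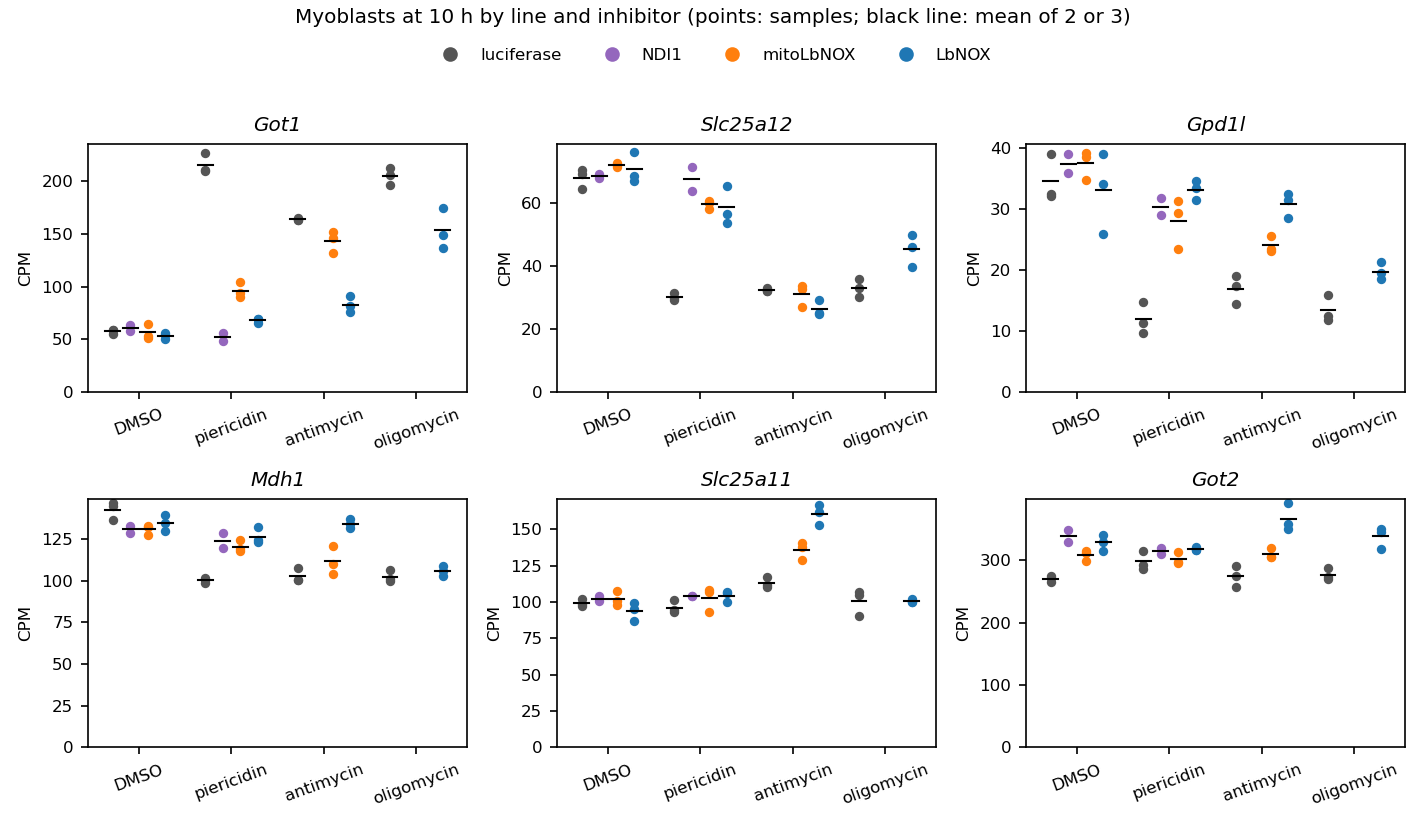
CPM of members in myoblasts of each line with DMSO and each inhibitor for 10 hr. Points are samples (n = 3 a group, 2 for NDI1) and lines are means. Got1 reached 216 CPM with piericidin in control, 96.2 in mitoLbNOX and 68.1 in LbNOX.

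LbNOX and mitoLbNOX oxidize NADH in different compartments, and their myoblasts were compared directly. In DMSO, 0 of 9 members differed by edgeR, among 0.309% of all genes, with 2 at an unadjusted p under 0.05 and 0 called by DESeq2. Got1 differed by -0.08 (95% interval -0.24 to 0.07) and Got2 by 0.09 (0.01 to 0.17). With piericidin 1 of 9 differed, among 3.02% of all genes, and Got1 was lower in LbNOX, at 65.8, 69.1 and 69.3 CPM, than in mitoLbNOX, at 90.2, 94.1 and 104 (log2 change -0.50, SE 0.08, adjusted p = 9.65e-05). With antimycin 8 of 9 differed, among 44.3%. Got1 was again lower in LbNOX, at 76.2, 81.8 and 90.8 against 132, 146 and 152 CPM (log2 change -0.80, SE 0.08, adjusted p = 1.15e-09), and so was Slc25a12 (log2 -0.25). Gpd1l was higher in LbNOX by 0.34, Mdh1 by 0.26, Gpd2 by 0.25, Got2 by 0.23, Slc25a11 by 0.23 and Mdh2 by 0.11. Samples of the lines did not overlap for Got1 under either inhibitor. The antimycin calls of Mdh2 (highest adjusted p = 0.336), Slc25a12 (highest adjusted p = 0.211), Gpd1l (highest adjusted p = 0.164), Slc25a11 (highest adjusted p = 0.0853) and Gpd2 (highest adjusted p = 0.0655) were lost in at least 1 alternative, and the count fell to between 4 and 6 when a replicate number was left out.

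The difference in response was tested by an interaction term. For antimycin it was called for 4 of 9 members, among 29.2% of all genes. The rise of Got1 was smaller in LbNOX than in mitoLbNOX, with an interaction of -0.71 (SE 0.11, adjusted p = 1.1e-05), and the interaction was positive for Gpd1l (log2 change 0.52, SE 0.19, adjusted p = 0.0383), Slc25a11 (log2 change 0.36, SE 0.08, adjusted p = 0.00114) and Mdh1 (log2 change 0.22, SE 0.07, adjusted p = 0.0124). For piericidin 0 of 9 members were called by edgeR, among 0.493% of all genes, with 2 at an unadjusted p under 0.05. DESeq2 called 1, Got1, whose edgeR value was -0.41 (SE 0.11, adjusted p = 0.116), and Got1 was also called without the count filter and with position as a covariate. The antimycin interactions of Mdh1 (highest adjusted p = 0.38), Gpd1l (highest adjusted p = 0.18) and Slc25a11 (highest adjusted p = 0.074) were lost in at least 1 alternative, and the count of 4 fell to between 1 and 3 when a replicate number was left out. The transgene's RNA was higher in mitoLbNOX than in LbNOX throughout, and in both lines it was lower with antimycin than in DMSO. Scaled by raw library totals, it was at 934 ± 32.4 CPM in LbNOX and 1840.1 ± 139.7 in mitoLbNOX in DMSO, 957 ± 149 and 1753 ± 130.0 with piericidin, and 263 ± 47.1 and 729.7 ± 74.0 with antimycin, and the part of this in the differences was not tested.

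**Figure D4:**
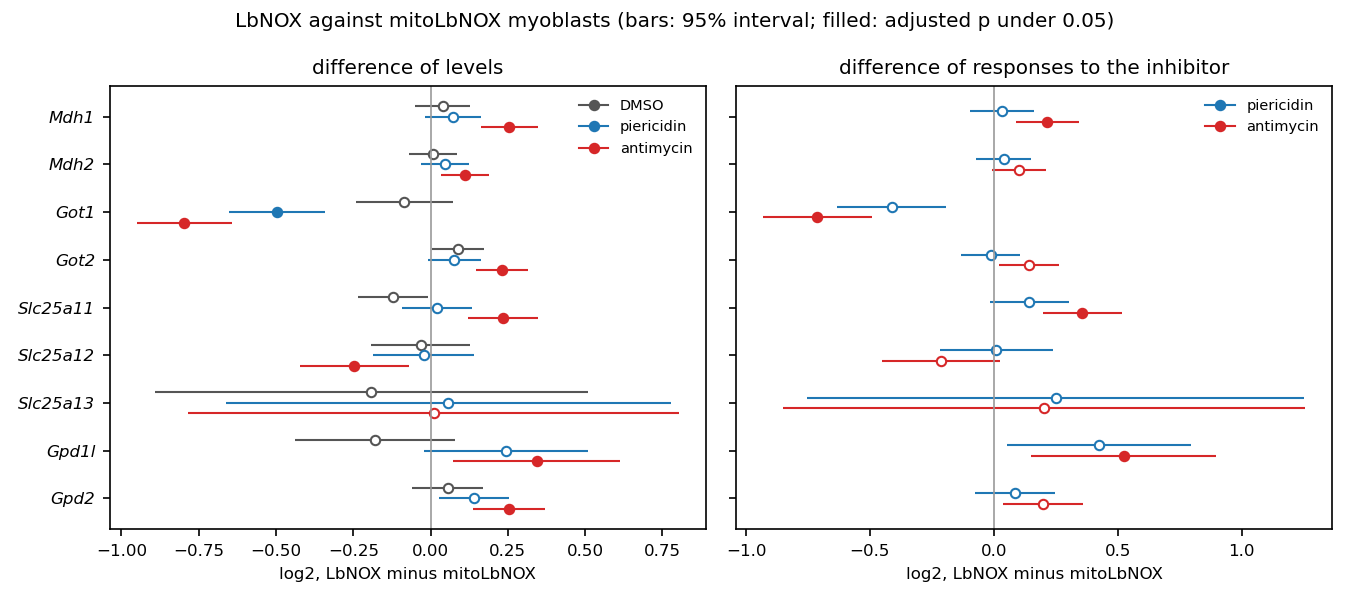
Log2 difference of LbNOX minus mitoLbNOX myoblasts for each member except Gpd1, with 95% intervals. The left panel shows levels in DMSO, piericidin and antimycin, and the right panel the difference of responses to piericidin and antimycin. Filled points were called. In the right panel, antimycin gave -0.71 for Got1, 0.52 for Gpd1l and 0.36 for Slc25a11.

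Against control myoblasts, the piericidin response differed in LbNOX for 7 of 9 members, among 44.3% of all genes, and in mitoLbNOX for 7 of 9, among 42.9%. The interaction of Got1 was -1.57 (SE 0.11, adjusted p = 1.16e-12) in LbNOX and -1.15 (SE 0.11, adjusted p = 8.28e-10) in mitoLbNOX, that of Gpd1l 1.52 and 1.09, and that of Slc25a12 0.89 and 0.88. Each of these was opposite in sign to the response in control. Mdh1 (0.41 and 0.37), Gpd2 (0.38 and 0.30), Mdh2 (-0.19 and -0.23) and Got2 (-0.20 and -0.18) were called likewise. For antimycin 6 of 9 members were called in LbNOX, among 51.5%, and 2 of 9 in mitoLbNOX, among 31.7%. In LbNOX these were Got1 at -0.88, Gpd1l at 0.92, Slc25a11 at 0.58, Mdh1 at 0.46, Slc25a12 at -0.36 and Gpd2 at 0.24, and in mitoLbNOX Mdh1 at 0.25 and Slc25a11 at 0.23. The fall of Slc25a12 with antimycin was thus larger in LbNOX than in control in the reported fit. That difference was -0.21 without replicate 2, and edgeR without the count filter did not call it (adjusted p = 0.0641). Gpd1l, Mdh1 and Gpd2, which fell in control, were not called in LbNOX, at -0.07, 0.03 and 0.00.

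The oligomycin response differed between LbNOX and control myoblasts for Gpd1l and Slc25a12. In LbNOX myoblasts 5 of 9 were called with oligomycin, among 35.2% of all genes. Got1 had 137, 149 and 175 CPM, an increase of 1.55 (SE 0.08, adjusted p = 5.35e-16), and Gpd1l (-0.72), Slc25a12 (-0.61), Mdh1 (-0.32) and Gpd2 (-0.20) fell, of which the call of Gpd2 (highest adjusted p = 0.114) was lost in an alternative. Stress response genes there summed to 1026 to 1064 CPM with oligomycin, proliferation markers to 568 to 621 and myoblast markers to 76.1 to 86.2, and their part was not tested. The interaction with control was called for 2 of 9, among 7.98%, namely Gpd1l at 0.64 (SE 0.20, adjusted p = 0.0413) and Slc25a12 at 0.41 (SE 0.12, adjusted p = 0.0276). Got1 was not called there, at -0.30 (95% interval -0.52 to -0.08), but was called with position as a covariate (adjusted p = 0.0402), and the calls of Gpd1l and Slc25a12 were lost when a replicate number was left out. Calls of the response differences from control lost in an alternative were, with piericidin, those of Mdh2 (highest adjusted p = 0.111) and Got2 (highest adjusted p = 0.149) in LbNOX and of Got2 (highest adjusted p = 0.275) and Gpd2 (highest adjusted p = 0.0793) in mitoLbNOX, with antimycin those of Gpd2 (highest adjusted p = 0.224) and Slc25a12 (highest adjusted p = 0.252) in LbNOX and of Slc25a11 (highest adjusted p = 0.344) and Mdh1 (highest adjusted p = 0.166) in mitoLbNOX, and with oligomycin those of Slc25a12 (highest adjusted p = 0.473) and Gpd1l (highest adjusted p = 0.255).

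Chloramphenicol for 48 hr had smaller effects, in groups of 2. In control myoblasts 3 of 9 members were called, among 8.45% of all genes. Got1 had 44.2 and 57.0 CPM in DMSO and 71.1 and 74.1 with chloramphenicol (log2 change 0.57, SE 0.12, adjusted p = 0.0195), and Gpd2 (log2 change -0.32, SE 0.08, adjusted p = 0.0429) and Mdh1 (log2 change -0.22, SE 0.06, adjusted p = 0.0469) fell. With the replicate number as a block only Got1 of these was called, and the calls of Mdh1 (highest adjusted p = 0.102) and Gpd2 (highest adjusted p = 0.0962) were lost in an alternative. In LbNOX myoblasts 0 of 9 were called by edgeR, among 0.931%, with 2 at an unadjusted p under 0.05 and 0 by DESeq2. Got1 there had 45.8 and 47.1 CPM in DMSO and 52.3 and 60.9 with chloramphenicol (log2 change 0.32, SE 0.12, adjusted p = 0.328). The response differed between LbNOX and control for 0 of 9 by edgeR, among 0.53%, with 0 at an unadjusted p under 0.05 and 0 by DESeq2, and the interaction of Got1 was -0.26 (95% interval -0.58 to 0.07). Stress response genes summed to 285 to 286 CPM in DMSO and 734 to 807 with chloramphenicol in control, and to 313 to 322 and 399 to 415 in LbNOX. Proliferation markers were at 812 to 883 and 709 to 726 CPM in control and 813 to 825 and 747 to 828 in LbNOX, and the part of these sums was not tested.

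In the 24 hr cells, oligomycin but not piericidin had called effects. With oligomycin 4 of 8 members were called, among 20.7% of all genes. Got1 had 58.0, 61.5 and 68.5 CPM in DMSO and 109, 113 and 116 with oligomycin (log2 change 0.87, SE 0.07, adjusted p = 3.47e-06), without overlap. The genes that fell were Gpd1l (log2 change -0.59, SE 0.09, adjusted p = 0.000538), Mdh1 (log2 change -0.46, SE 0.05, adjusted p = 7.08e-05) and Slc25a12 (log2 change -0.34, SE 0.08, adjusted p = 0.00876), the last of which was lost in an alternative (highest adjusted p = 0.108). With piericidin 0 of 8 were called by edgeR, among 2.75%, with 2 at an unadjusted p under 0.05 and 0 by DESeq2, and Got1 had 61.4, 64.2 and 66.0 CPM, a change of 0.03 (95% interval -0.10 to 0.17). Stress response genes summed to 275 to 284 CPM in DMSO, 233 to 247 with piericidin and 1149 to 1166 with oligomycin. Proliferation markers were at 146 to 160.0, 117 to 121 and 108 to 115 CPM, and the part of these sums was not tested. Gpd1 and Slc25a13 were under the count filter in this comparison.

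In untransduced myotubes, Got1 was called higher with oligomycin, antimycin and BAM15, with the largest change for oligomycin, and not with piericidin. Got1 had 56.2, 57.9 and 62.4 CPM in DMSO, 59.4, 71.0 and 71.6 with piericidin, 76.7, 78.2 and 79.1 with antimycin, 139.5, 140.1 and 147 with oligomycin and 68.0, 73.2 and 73.6 with BAM15. It rose by 1.28 (SE 0.07, adjusted p = 7.51e-13) with oligomycin, 0.42 (SE 0.07, adjusted p = 0.000297) with antimycin and 0.29 (SE 0.07, adjusted p = 0.00515) with BAM15, and was at 0.21 (SE 0.07, adjusted p = 0.0935) with piericidin, where one sample lay within the DMSO range. Gpd1l fell with oligomycin (log2 change -0.54, SE 0.07, adjusted p = 1.55e-06), BAM15 (-0.29) and piericidin (-0.23), and Mdh1 fell with oligomycin (log2 change -0.34, SE 0.05, adjusted p = 1.6e-06). Gpd2 had 21.6, 22.1 and 22.4 CPM in DMSO, 30.4, 33.1 and 33.3 with piericidin and 27.6, 29.6 and 30.0 with antimycin, and rose by 0.55 (SE 0.12, adjusted p = 0.00261) and 0.41 (SE 0.12, adjusted p = 0.0179), where in control myoblasts it had fallen. Slc25a12 rose with antimycin by 0.25 (SE 0.06, adjusted p = 0.00402). The members called were 2 of 9 with piericidin, among 8.99% of all genes, 3 of 9 with antimycin, among 12.9%, 3 of 9 with oligomycin, among 33.3%, and 2 of 9 with BAM15, among 25.4%. Gpd1, now counted, had 5.88, 5.88 and 7.43 CPM in DMSO and 7.68, 9.19 and 11.3 with antimycin, a change of 0.57 (SE 0.24, adjusted p = 0.121), and was called with none of the 4. Stress response genes summed to 252 to 265 CPM in DMSO, 265 to 275 with piericidin, 365 to 377 with antimycin, 1334 to 1379 with oligomycin and 507 to 530.1 with BAM15. Differentiation genes were at 10956 to 11279.9 CPM in DMSO and, in the same order, at 13102 to 13382, 12484 to 12626, 13377 to 13588 and 13323 to 13938, and the part of these sums was not tested. Slc25a13 was under the count filter in the myotube fits. Calls lost in an alternative were with piericidin those of Gpd1l (highest adjusted p = 0.287) and Gpd2 (highest adjusted p = 0.0794), with antimycin those of Slc25a12 (highest adjusted p = 0.0935) and Gpd2 (highest adjusted p = 0.221) and with BAM15 that of Got1 (highest adjusted p = 0.11).

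Got1 was lower with oligomycin plus piericidin or BAM15 than with oligomycin alone. With oligomycin and piericidin together Got1 had 75.7, 78.2 and 81.8 CPM, and with oligomycin and BAM15 72.3, 72.3 and 82.7, all below the 139.5, 140.1 and 147 of oligomycin alone and above the DMSO samples. The log2 change of Got1 was -0.86 (SE 0.07, adjusted p = 2e-09) when piericidin was added to oligomycin and -0.91 (SE 0.07, adjusted p = 4.34e-10) when BAM15 was. With added piericidin, Gpd1l was higher by 0.34, Mdh1 by 0.30 and Slc25a12 by 0.29, so 4 of 9 members were called, among 20.9% of all genes. With added BAM15 5 of 9 were called, among 26.1%, with Gpd1l at 0.20, Mdh1 at 0.18, Slc25a12 at 0.18 and Got2 at -0.17 besides Got1. Only the change of Got1 stood in every alternative for added BAM15, while those of Mdh1 (highest adjusted p = 0.126), Slc25a12 (highest adjusted p = 0.306), Got2 (highest adjusted p = 0.245) and Gpd1l (highest adjusted p = 0.196) did not, and for added piericidin that of Gpd1l (highest adjusted p = 0.0775) did not. Summed stress response genes went from 252 to 265 CPM in DMSO to 1334 to 1379 with oligomycin, 485 to 512 with piericidin added and 594 to 658 with BAM15 added.

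Of the 22 comparisons of a single agent or of hypoxia with DMSO, hypoxia was the one in which Got1 was called lower. Got1 had 49.4, 50.4 and 51.3 CPM in hypoxia, below every normoxic DMSO sample (log2 change -0.22, SE 0.08, adjusted p = 0.0334). Got2 (log2 change -0.27, SE 0.06, adjusted p = 0.000746), Gpd1l (log2 change -0.39, SE 0.07, adjusted p = 0.000171) and Mdh1 (log2 change -0.28, SE 0.05, adjusted p = 4.75e-05) fell as well, so 4 of 9 members were called, among 22.1% of all genes. In hypoxia with oligomycin Got1 had 49.6, 59.0 and 59.5 CPM. Against oligomycin in normoxia, Got1 (log2 change -1.33, SE 0.07, adjusted p = 3.93e-13) and Got2 (log2 change -0.27, SE 0.06, adjusted p = 0.000643) were lower, 2 of 9 members, among 33.3% of all genes. Oligomycin under hypoxia called 0 of 9 by edgeR, among 4.26%, with 1 at an unadjusted p under 0.05 and 0 by DESeq2, and Got1 differed by 0.17 (95% interval 0.02 to 0.32). The call of Got1 in hypoxia alone was lost in some alternatives (highest adjusted p = 0.192). Summed proliferation markers were at 88.5 to 104 CPM in normoxic DMSO, 11.6 to 17.7 in hypoxia and 11.3 to 14.7 in hypoxia with oligomycin. Stress response genes were at 276 to 296 CPM in hypoxia and 381 to 436 in hypoxia with oligomycin, against 1334 to 1379 with oligomycin in normoxia, and differentiation genes were at 12752 to 13047 and 12591 to 12874 in hypoxia. The part of these sums in the change of the shuttle genes was not tested. In the comparison of hypoxia with normoxia, genes of lactate and pyruvate handling were 2 higher and 1 lower of 6 tested, with Ldha at 1.32 and Slc16a3 at 1.31.

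**Figure D5:**
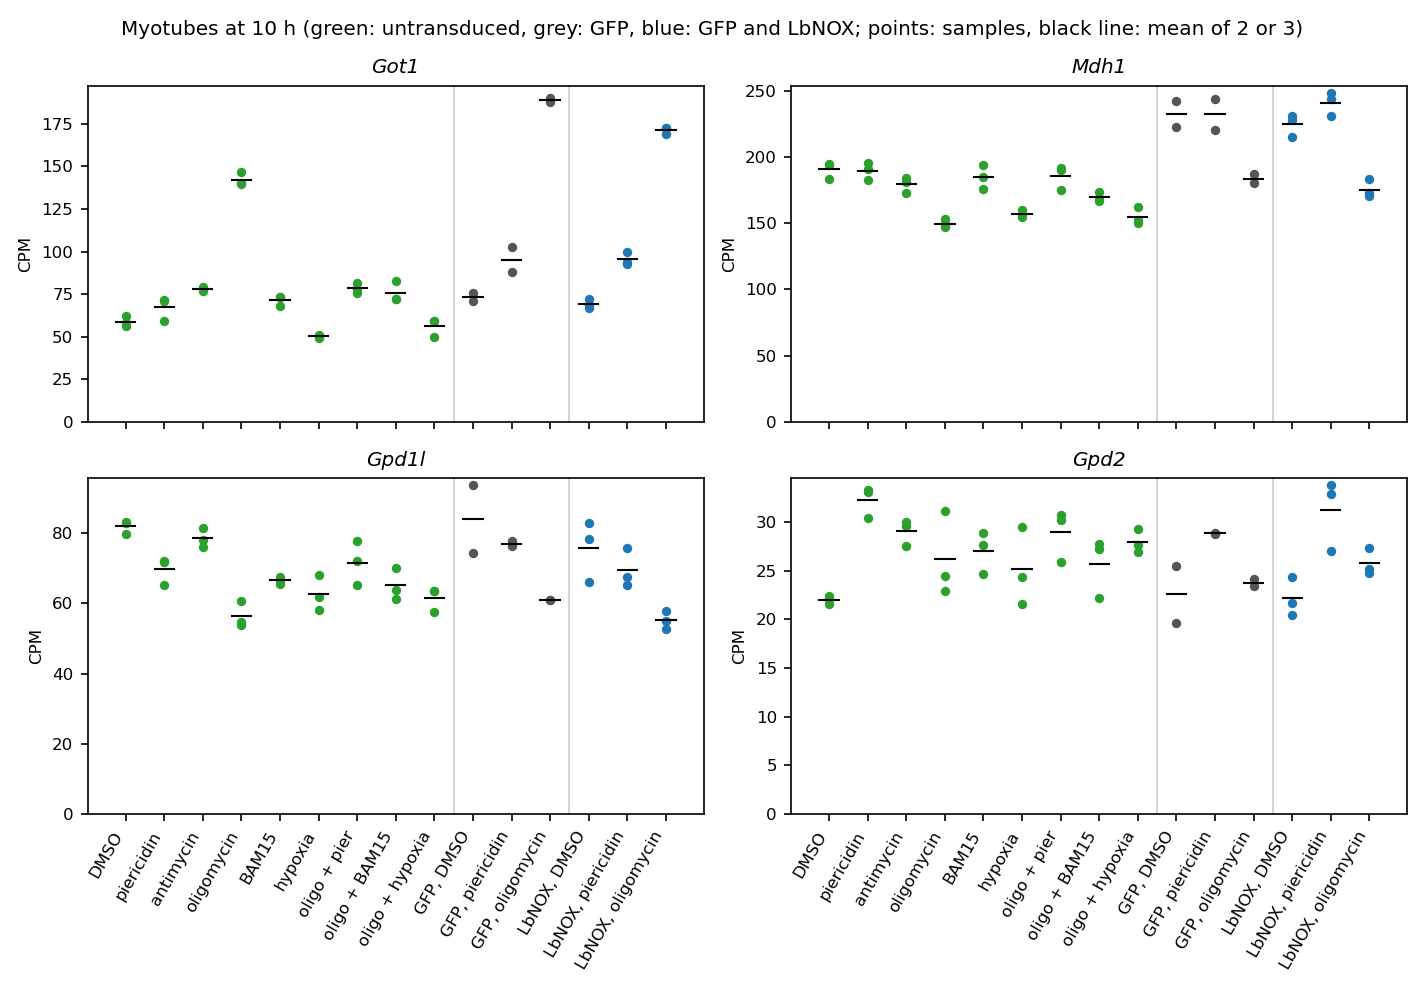
CPM of Got1, Mdh1, Gpd1l and Gpd2 in myotubes under each condition, untransduced or transduced with GFP or with GFP and LbNOX. Points are samples (n = 3 a group, 2 for GFP) and lines are means. Got1 lies between 139.5 and 147 CPM with oligomycin alone in untransduced myotubes and at 82.7 or less in their other groups.

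In myotubes transduced with adenovirus, no shuttle gene was called between LbNOX and GFP in DMSO or in the response to oligomycin. In DMSO 0 of 9 members differed between LbNOX and GFP myotubes by edgeR, among 0.00807% of all genes, with 1 at an unadjusted p under 0.05 and 0 by DESeq2. In GFP myotubes Got1 had 70.9 and 75.5 CPM in DMSO and 188 and 190.2 with oligomycin (log2 change 1.36, SE 0.07, adjusted p = 3.77e-09). In LbNOX myotubes it had 67.2, 68.9 and 72.4 CPM in DMSO and 169, 173 and 173 with oligomycin (log2 change 1.30, SE 0.06, adjusted p = 4.13e-10), so both rose well above their DMSO samples. The difference between these responses was -0.06 (95% interval -0.24 to 0.12), and 0 of 9 members were called for it by edgeR, among 0%, with 0 at an unadjusted p under 0.05 and 0 by DESeq2. The RNA of the LbNOX transgene, scaled by raw library totals, was at 7802 ± 306 CPM in DMSO, 12014 ± 131 with oligomycin and 6189.7 ± 266 with piericidin. Stress response genes summed to 229.9 to 241 CPM in DMSO, 1689.6 to 1761 with oligomycin and 295 to 307 with piericidin in GFP myotubes, and to 222 to 234, 1562 to 1591 and 307 to 328 in LbNOX myotubes. Differentiation genes were at 10056 to 10465 CPM in DMSO, 11630 to 11849 with oligomycin and 12257 to 13166 with piericidin in GFP myotubes. In LbNOX myotubes they were at 10121 to 10759, 11468 to 12067 and 12796 to 13435. In the same order, myoblast markers were at 164 to 179, 121 to 132 and 175 to 179 with GFP, and 163 to 169, 122 to 124 and 169 to 189 with LbNOX. The part of the transgene and of these sums was not tested. The members called with oligomycin were 4 of 9 in GFP myotubes, among 25.8%, and 3 of 9 in LbNOX myotubes, among 31.8%. Gpd1l (-0.47 with GFP and -0.46 with LbNOX) and Mdh1 (-0.35 and -0.36) fell in both, and Slc25a11 in GFP myotubes (-0.17). With piericidin, 1 of 9 was called in GFP myotubes, among 3.08%, and 3 of 9 in LbNOX myotubes, among 6.77%. Got1 rose by 0.38 (SE 0.07, adjusted p = 0.00846) with GFP and 0.46 (SE 0.06, adjusted p = 0.000247) with LbNOX, and Gpd2 rose with LbNOX by 0.49 (SE 0.11, adjusted p = 0.015). Gpd1 had 9.32, 11.3 and 13.9 CPM in DMSO and 15.9, 16.3 and 18.7 with piericidin in LbNOX myotubes (log2 change 0.56, SE 0.15, adjusted p = 0.0447). In GFP myotubes it had 10.7 and 11.9 CPM in DMSO and 17.0 and 18.4 with piericidin and was not called (log2 change 0.65, SE 0.19, adjusted p = 0.0846). Piericidin samples lay above DMSO samples in both, and the piericidin responses of the 2 kinds of myotube were not tested against each other. Lost in an alternative were the calls of Slc25a11 (highest adjusted p = 0.422), Mdh1 (highest adjusted p = 0.0537) and Gpd1l (highest adjusted p = 0.215) for oligomycin with GFP, of Got1 (highest adjusted p = 0.326) for piericidin with GFP and of Gpd1 (highest adjusted p = 0.326) and Gpd2 (highest adjusted p = 0.197) for piericidin with LbNOX, and Gpd1's call was also lost with the replicate number as a block.

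The responses of untransduced myotubes and control myoblasts to the same inhibitor were compared by an interaction term. With piericidin 7 of 10 interactions were called, among 46.5% of all genes, with antimycin 8 of 10, among 47.9%, and with oligomycin 4 of 10, among 29%. Without Gpd1 and Slc25a13, each kept by the state where it is high, the counts were 6 of 8, 6 of 8 and 4 of 8. The rise of Got1 was smaller in myotubes, with interactions of -1.69 (SE 0.09, adjusted p = 2.29e-15) for piericidin, -1.09 (SE 0.09, adjusted p = 3.01e-11) for antimycin and -0.57 (SE 0.09, adjusted p = 1.13e-05) for oligomycin. The interactions of Slc25a12 were 1.31, 1.33 and 0.94, those of Gpd1l 1.31, 0.98 and 0.83 and those of Gpd2 0.98, 0.70 and 0.48, each called and positive, so these genes fell less in myotubes or rose. Mdh1 was called with piericidin (0.51) and antimycin (0.40), as was Mdh2 (-0.29 and -0.27). Interactions of Gpd1 and Slc25a13 rest on few counts. Gpd1 had 0, 0 and 1 counts in the myoblasts with piericidin and 0, 0 and 1 with antimycin, and Slc25a13 had 3, 11 and 14 in the myotubes with antimycin, so their fitted values depend on single counts. Calls lost in an alternative were with piericidin that of Gpd1 (highest adjusted p = 0.189), with antimycin those of Slc25a13 (highest adjusted p = 0.388) and Gpd1 (highest adjusted p = 0.0594) and with oligomycin that of Gpd2 (highest adjusted p = 0.109).

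Over the 22 comparisons of a single agent or of hypoxia with DMSO, which leave out oligomycin under hypoxia (Got1 at 0.17, not called), Got1 was called higher in 17 and lower in 1, with log2 changes from -0.22 to 1.94. Gpd1l was called higher in 0 and lower in 13, and Mdh1 was called higher in 0 and lower in 11. The counts of higher and lower calls were 1 and 8 for Slc25a12, 3 and 6 for Gpd2, 4 and 0 for Mdh2, 3 and 1 for Slc25a11 and 2 and 1 for Got2. They were 0 and 3 of the 11 comparisons that tested Slc25a13, and 1 and 0 of the 9 that tested Gpd1. These comparisons share vehicle samples within a line or state.

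Across the 35 group means, the genes most like each member were named by Pearson's correlation of log2 CPM among 13353 genes, as a description over groups that share cell state. Got1 was most like Them4 (r = 0.933), Dld (r = 0.931) and Ghitm (r = 0.924), and Got2 most like Nudc (r = 0.978), Naa10 (r = 0.976) and Slc25a5 (r = 0.975). Gpd2 was most like Ptma (r = 0.989), Axl (r = 0.988) and Tex30 (r = 0.987), and Gpd1l like Bdkrb1 (r = 0.980), Stat5a (r = 0.975) and Scd2 (r = 0.963). For Mdh1 the nearest were Ubac1 (r = 0.957), Fech (r = 0.953) and Lpcat3 (r = 0.944), for Mdh2 Gps1 (r = 0.956), Mrpl16 (r = 0.955) and Pdpn (r = 0.946) and for Slc25a11 Acadvl (r = 0.871), Slc35a2 (r = 0.866) and Hcfc1r1 (r = 0.863). For Slc25a12 they were Gdf11 (r = 0.900), Tango2 (r = 0.878) and Epn2 (r = 0.876), for Slc25a13 Uba2 (r = 0.932), Ripk3 (r = 0.931) and Ttf2 (r = 0.931) and for Gpd1 Scd1 (r = 0.974), Cdadc1 (r = 0.973) and Usp28 (r = 0.973).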

How the data were processed

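RNA-seq was analysed for 96 C2C12 samples. The authors made Smart-seq2 libraries of polyadenylated RNA, ran kallisto 0.44 with bias correction on Ensembl transcripts of GRCm38.p6 (mm10) and the transgenes, and summarized genes with tximport. The deposited values are their estimated counts, not normalized, as whole numbers, summed over flow cells. Groups came from the labels. The 10 members and all gene lists were chosen with earlier results of these data known.

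A gene was kept in a fit when 1 group had 16 counts or more in all of its replicates (11702 to 12765 genes over 6 fits). Tests were edgeR 4.0.16 quasi-likelihood tests (R 4.3.3, limma 3.58.1) with TMM normalization, and p-values were adjusted per comparison by Benjamini-Hochberg, with calls at 0.05. CPM used TMM-normalized totals of kept genes (raw totals for transgenes), and length the longest APPRIS principal coding transcript. Alternatives were DESeq2 1.42.0 (Wald test or size factors), no filter, a replicate block, position, and leaving out each replicate. The code was tested on simulated data. Of 87 replicate pairs 0 were identical. Named genes are all members, the lists' largest called changes (up to 3) and the 3 nearest genes by correlation, while the values of 1 of the listed genes are not reported here. Aldoa has 2 rows, and the larger was used. Figures used Python 3.11.15 and matplotlib 3.10.9. Depth, 6458295 to 15366745 counts, limits Gpd1 and Slc25a13.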

Additional observations from a re-analysis of the deposited data

Results flagged for a closer look

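The following responses differed between groups by the interaction term in edgeR's quasi-likelihood test with Benjamini-Hochberg adjustment, and the values are differences of log2 changes. No test for a single outlying sample was made, because no group holds more than 3 samples.

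The antimycin response of LbNOX minus that of mitoLbNOX myoblasts differed for Got1 (-0.71), Mdh1 (0.22), Slc25a11 (0.36) and Gpd1l (0.52). Relative to control, the piericidin response of LbNOX myoblasts differed for Got1 (-1.57), Got2 (-0.20), Mdh2 (-0.19), Gpd2 (0.38), Mdh1 (0.41), Slc25a12 (0.89) and Gpd1l (1.52), and their antimycin response for Got1 (-0.88), Slc25a12 (-0.36), Gpd2 (0.24), Mdh1 (0.46), Slc25a11 (0.58) and Gpd1l (0.92). The oligomycin response of LbNOX myoblasts differed from control for Slc25a12 (0.41) and Gpd1l (0.64). In mitoLbNOX myoblasts the piericidin response differed from control for Got1 (-1.15), Mdh2 (-0.23), Got2 (-0.18), Gpd2 (0.30), Mdh1 (0.37), Slc25a12 (0.88) and Gpd1l (1.09), and the antimycin response for Slc25a11 (0.23) and Mdh1 (0.25).

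Between untransduced myotubes and control myoblasts, the piericidin response differed for Got1 (-1.69), Mdh2 (-0.29), Mdh1 (0.51), Gpd2 (0.98), Gpd1l (1.31), Slc25a12 (1.31) and Gpd1 (3.39). The antimycin response differed for Got1 (-1.09), Mdh2 (-0.27), Mdh1 (0.40), Gpd2 (0.70), Gpd1l (0.98), Slc25a12 (1.33), Slc25a13 (1.85) and Gpd1 (3.70), and the oligomycin response for Got1 (-0.57), Gpd2 (0.48), Gpd1l (0.83) and Slc25a12 (0.94). The values of Gpd1 rest on myoblast libraries with 0 or 1 counts under the inhibitor, depend on the fitted prior and are no bound, and that of Slc25a13 with antimycin rests on few counts and was not called by DESeq2 (adjusted p = 0.0543).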

How the results depend on the processing

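No member's log2 change that was called, in the reported fit or in the alternative, changed sign between them. Changes of sign among values called in neither were not counted. DESeq2 size factors in place of TMM moved no count of called members by over 1.5 times. Counts of called members moved as follows, with the reported count in parentheses. DESeq2's Wald test gave 3 for piericidin in LbNOX myoblasts (1) and 1 for piericidin response of LbNOX against mitoLbNOX myoblasts (0). Without a count filter they were 0 for mitoLbNOX against luciferase in DMSO myoblasts (1), 5 for LbNOX against mitoLbNOX in antimycin myoblasts (8), 1 for piericidin response of LbNOX against mitoLbNOX myoblasts (0), 1 for oligomycin response of LbNOX against control myoblasts (2), 0 for antimycin response of mitoLbNOX against control myoblasts (2), 1 for piericidin against oligomycin in control myoblasts (3), 1 for piericidin in myotubes (2) and 1 for BAM15 added to oligomycin in myotubes (5). Position as a covariate gave 2 for piericidin in LbNOX myoblasts (1), 1 for piericidin in mitoLbNOX myoblasts (3), 1 for piericidin response of LbNOX against mitoLbNOX myoblasts (0) and 1 for chloramphenicol in control myoblasts (3), and it could not be fitted in the 24 hr cells, whose samples were all at the outer edge. With the replicate number as a block they were 2 for piericidin in LbNOX myoblasts (1) and 1 for chloramphenicol in control myoblasts (3). That block was not taken as a pairing, because samples with the same number did not deviate together (mean correlations of -0.038 to 0.026 over the 6 fits, lowest -0.247).

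Leaving out each replicate number over all groups moved the count in 16 of 46 comparisons, to 0 to 1 for piericidin in LbNOX myoblasts (1), 1 to 2 for piericidin in mitoLbNOX myoblasts (3), 0 to 0 for mitoLbNOX against luciferase in DMSO myoblasts (1), 4 to 6 for LbNOX against mitoLbNOX in antimycin myoblasts (8), 1 to 3 for antimycin response of LbNOX against mitoLbNOX myoblasts (4), 0 to 1 for oligomycin response of LbNOX against control myoblasts (2), 1 to 1 for antimycin response of mitoLbNOX against control myoblasts (2), 1 to 3 for antimycin against piericidin in control myoblasts (4), 1 to 1 for piericidin against oligomycin in control myoblasts (3), 0 to 1 for piericidin in myotubes (2), 1 to 2 for antimycin in myotubes (3), 1 to 2 for BAM15 in myotubes (2), 1 to 2 for BAM15 added to oligomycin in myotubes (5), 0 to 1 for piericidin in GFP myotubes (1), 1 to 3 for oligomycin in GFP myotubes (4) and 1 to 1 for piericidin in LbNOX myotubes (3). Groups of 2 then held 1 sample, assumed to vary like the others, and the chloramphenicol libraries could not be fitted this way. The cause of these changes was not tested, beyond the fewer samples. Over all genes, leaving out a replicate number took the count of called genes down by over 1.5 times in 25 of 46 comparisons, and it took that for piericidin in NDI1 myoblasts from 1 up to 55. Members that were not called but were called in an alternative were Got2 for antimycin in control myoblasts, Slc25a11 and Slc25a12 for piericidin in LbNOX myoblasts, Slc25a13 for antimycin in mitoLbNOX myoblasts, Got1 for piericidin response of LbNOX against mitoLbNOX myoblasts, Got2 for antimycin response of LbNOX against control myoblasts, Got1 for oligomycin response of LbNOX against control myoblasts, Mdh2 for antimycin response of mitoLbNOX against control myoblasts, Gpd2 for antimycin against piericidin in control myoblasts, Mdh2 for BAM15 in myotubes, Mdh2 for BAM15 added to oligomycin in myotubes, Mdh2 for hypoxia under oligomycin in myotubes, Gpd1 for oligomycin in LbNOX myotubes, Slc25a11 and Got1 for 24 h cells against myoblasts in DMSO, Mdh2 for myotubes against 24 h cells in DMSO and Got2 for piericidin response of myotubes against myoblasts. DESeq2's Wald test gave 173 for chloramphenicol in LbNOX myoblasts (reported 109), 140 for chloramphenicol response of LbNOX against control myoblasts (reported 62), 15 for LbNOX against GFP in DMSO myotubes (reported 1) and 6 for piericidin in NDI1 myoblasts (reported 1) called genes, position 2945 for myotubes against 24 h cells in DMSO (reported 4549), 2316 for oligomycin response of myotubes against myoblasts (reported 3702) and 94 for piericidin response of LbNOX against mitoLbNOX myoblasts (reported 59), and the block 22 for chloramphenicol response of LbNOX against control myoblasts (reported 62). Without the filter they were 694 for chloramphenicol in LbNOX myoblasts (reported 109), 440 for chloramphenicol response of LbNOX against control myoblasts (reported 62), 184 for LbNOX against GFP in DMSO myotubes (reported 1), 133 for LbNOX against mitoLbNOX in DMSO myoblasts (reported 37), 532 for mitoLbNOX against luciferase in DMSO myoblasts (reported 209), 199 for oligomycin response of LbNOX against GFP myotubes (reported 0), 613 for piericidin in 24 h cells (reported 325), 1347 for piericidin in LbNOX myotubes (reported 839), 538 for piericidin in NDI1 myoblasts (reported 1) and 125 for piericidin response of LbNOX against mitoLbNOX myoblasts (reported 59). Gpd1 in myoblasts and Slc25a13 in all states are limited by depth, with 0 to 10 and 0 to 77 counts a library.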

Other observations

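Genes of lactate and pyruvate handling were compared between LbNOX and mitoLbNOX myoblasts. In DMSO 2 higher and 0 lower of 7 tested were called, among 0.309% of all genes, with Slc16a7, a monocarboxylate transporter, higher in LbNOX by 2.74. The SE of Slc16a7 for chloramphenicol was 1.04 in control myoblasts and 0.49 in LbNOX myoblasts. A single group can carry a gene through the count filter, and whether LbNOX alone did so for Slc16a7 was not tested. Its value and its place in the counts of called genes are therefore only a description. With antimycin, where 44.3% of all genes were called, the count was 4 higher and 0 lower of 7. Slc16a7, under the same limit, was at 2.63 and Slc16a3 at 0.95. Around glycerol phosphate, 3 higher and 1 lower of 7 genes were called, with Gpat3 at -1.69 and Pgp, a phosphatase of glycerol phosphate and phosphoglycolate, at 0.83. Of the genes around malate, aspartate and glutamate 5 higher and 4 lower of 11 were called, among them Me3, a mitochondrial malic enzyme, which was lower in LbNOX, and Pcx, pyruvate carboxylase, at -0.91.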
